A study of Rattus norvegicus with 9 samples.

Results

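The genes described here make cholesterol and fatty acids, and they were followed across Schwann cells grown from rat sciatic nerve, Schwann cells grown from skin, and the skin precursors themselves. They are 36 genes chosen by name: 17 enzymes of sterol synthesis, 15 enzymes of fatty acid synthesis, desaturation, elongation and activation, and 4 genes of the SREBP (sterol regulatory element binding protein) system. A member was taken as measured where an array feature carried its symbol and no other, which held for 32 of the 36, among 14506 genes measured in all. Those 32 were 16 sterol enzymes, 13 fatty acid enzymes and 3 regulators; Hmgcs1, Srebf1, Elovl1 and Elovl7 had no such feature and were not analysed here.

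The 9 arrays held 3 samples of each of 3 cultures from adult Sprague Dawley rats. Nerve Schwann cells came from digested sciatic nerve and were plated in a Schwann cell growth medium. SKPs (skin-derived precursors) came from dorsal trunk skin and grew as free spheres in medium that promotes proliferation. SKP-derived Schwann cells were SKP spheres plated in the Schwann cell medium; both kinds of Schwann cell were passaged and harvested when confluent, whereas SKPs were harvested as spheres. No gene was altered and no agent is named in any group. Schwann cells therefore differed from SKPs in medium and in attachment as well as in cell type. The SKP arrays are labelled as a reanalysis of samples from an earlier deposit, so an array batch and the SKP group cannot be told apart. The labels call the samples of a group independent without naming animals, and they give dermis as the tissue of the nerve cultures too. Where the 3 samples of a group did not come from separate animals, the p-values measure only the spread between cultures.

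Cholesterol is built from acetyl-CoA through mevalonate, farnesyl diphosphate, squalene and lanosterol, while fatty acids are built from acetyl-CoA and malonyl-CoA and are then lengthened, desaturated and coupled to CoA. SREBP transcription factors, held in the endoplasmic reticulum by the Insig proteins and escorted out by Scap, switch on both pathways when sterols are scarce. Schwann cells wrap axons in myelin, a membrane very rich in cholesterol and long-chain lipids, and make much of its cholesterol themselves. The labels name no neurons in the cultures measured here.

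Each value is a log2 expression level after robust multi-array averaging, so a difference of 1 is a doubling; levels of different genes come from different probes and are not set against each other. A gene was called where limma's test over all 9 arrays gave a Benjamini-Hochberg adjusted p under 0.05 across the 14506 genes. The deposited arrays did not share one scale: the median gene was 0.46 higher in nerve Schwann cells than in SKPs and 0.45 lower in SKP-derived than in nerve Schwann cells, while SKP-derived Schwann cells and SKPs differed by only -0.01. After cyclic loess, which aligns the arrays with each other, these medians were -0.03, -0.02 and -0.03. Calls are therefore given as deposited and as the number that held in the same direction under all 4 scalings tried (as deposited, median centring, cyclic loess and quantile normalisation). Both comparisons with SKPs use the same 3 SKP arrays, so agreement between them is not independent evidence.

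The labels of the cultures were checked with marker genes. All 8 measured Schwann cell markers of 10 listed were called higher in both Schwann cell groups than in SKPs under all 4 scalings. Of all genes, 15.3% were so called in nerve and 14.3% in SKP-derived Schwann cells. The mean level of these markers was 11.19 to 11.35 in nerve arrays, 10.23 to 11.14 in SKP-derived arrays and 5.30 to 5.46 in SKP arrays. Between the Schwann cells, 1 of the 8 was called lower in SKP-derived ones under all 4 scalings, as were 0.352% of all genes. The mean of Gfap was 9.18 in nerve Schwann cells, 6.32 in SKP-derived ones and 5.34 in SKPs. Some arrays stood apart from others of their group. The mean of 8 dermal mesenchyme markers was 7.86, 10.45 and 9.15 in SKP-derived arrays 1, 2 and 3. It was 8.81, 9.90 and 8.21 in the nerve arrays, and 12.11, 12.09 and 10.70 in the SKP arrays. Of those 8, 5 were called lower than in SKPs in each kind of Schwann cell under all 4 scalings. Of all genes, 14.9% were so called in nerve and 21.4% in SKP-derived Schwann cells. Dcn, 1 of the 8, had means of 12.22 in nerve, 12.06 in SKP-derived Schwann cells and 13.19 in SKPs. The mean of 8 macrophage markers was 7.63 in SKP array 1, 6.25 in array 2 and 5.58 in array 3, against 5.14 to 5.92 in all Schwann cell arrays. Of these 8, under all 4 scalings 0 were called higher than in SKPs, and 1 was lower in nerve and 2 in SKP-derived Schwann cells. Of all genes, 14.9% and 21.4% were so called lower. Cd14, lower in both, was 10.77, 10.25 and 9.18 in SKP arrays. It did not follow the other markers: Ptprc, for example, was 7.66, 4.64 and 4.13 there. The mean of 7 measured proliferation genes was 8.32, 7.77 and 5.98 in SKP arrays 1, 2 and 3, 8.42, 8.47 and 9.25 in SKP-derived arrays 1, 2 and 3, and 7.41, 6.74 and 6.64 in nerve arrays 1, 2 and 3. Of those 7, as deposited 6 were called higher in SKP-derived than in nerve Schwann cells (1 under all 4 scalings) and 3 higher than in SKPs (2 under all 4). Of all genes, 1.33% were called higher in SKP-derived than in nerve Schwann cells as deposited (0.476% under all 4). Against SKPs, 19.3% were called higher (14.3% under all 4). The mean of 8 adipocyte markers was 6.39 in SKP array 1, 5.90 in array 2 and 5.37 in array 3, against 5.96 to 6.17 in nerve and 5.53 to 5.75 in SKP-derived arrays. Of those 8, limma called 0 in either direction in any comparison under all 4 scalings, and as deposited 5 higher in nerve Schwann cells and 1 higher in SKP-derived ones than in SKPs, and 3 lower in SKP-derived than in nerve Schwann cells. As deposited, 49.7% of all genes were called higher in nerve and 19.3% in SKP-derived Schwann cells than in SKPs. Between the Schwann cells, 42.3% were called lower in SKP-derived ones. At an unadjusted p under 0.05 under all 4 scalings, 1 was higher in nerve, and 1 higher and 1 lower in SKP-derived Schwann cells than in SKPs. Over all 14506 genes these counts were, in the same order, 2663, 2586 and 3668. In bulk RNA a smaller share of a cell type and less RNA per cell cannot be told apart.

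The largest rises among the members were in the desaturase genes Fads1 and Fads2 and the elongase gene Elovl6. These were 4.67 to 16.1 times higher in both kinds of Schwann cell than in SKPs. The other desaturase and elongase among the measured members, Scd and Elovl5, were not called. Sterol synthesis moved less and in both directions: Mvd fell in both kinds of Schwann cell and Hsd17b7 fell in nerve Schwann cells, whereas Fdft1, Nsdhl, Sc5d and Dhcr7 rose in SKP-derived Schwann cells. Insig1 and Me1 fell in both. No member was called between the 2 kinds of Schwann cell under all 4 scalings. The plot of member differences against SKPs shows all 32 genes.

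**Figure D1:**
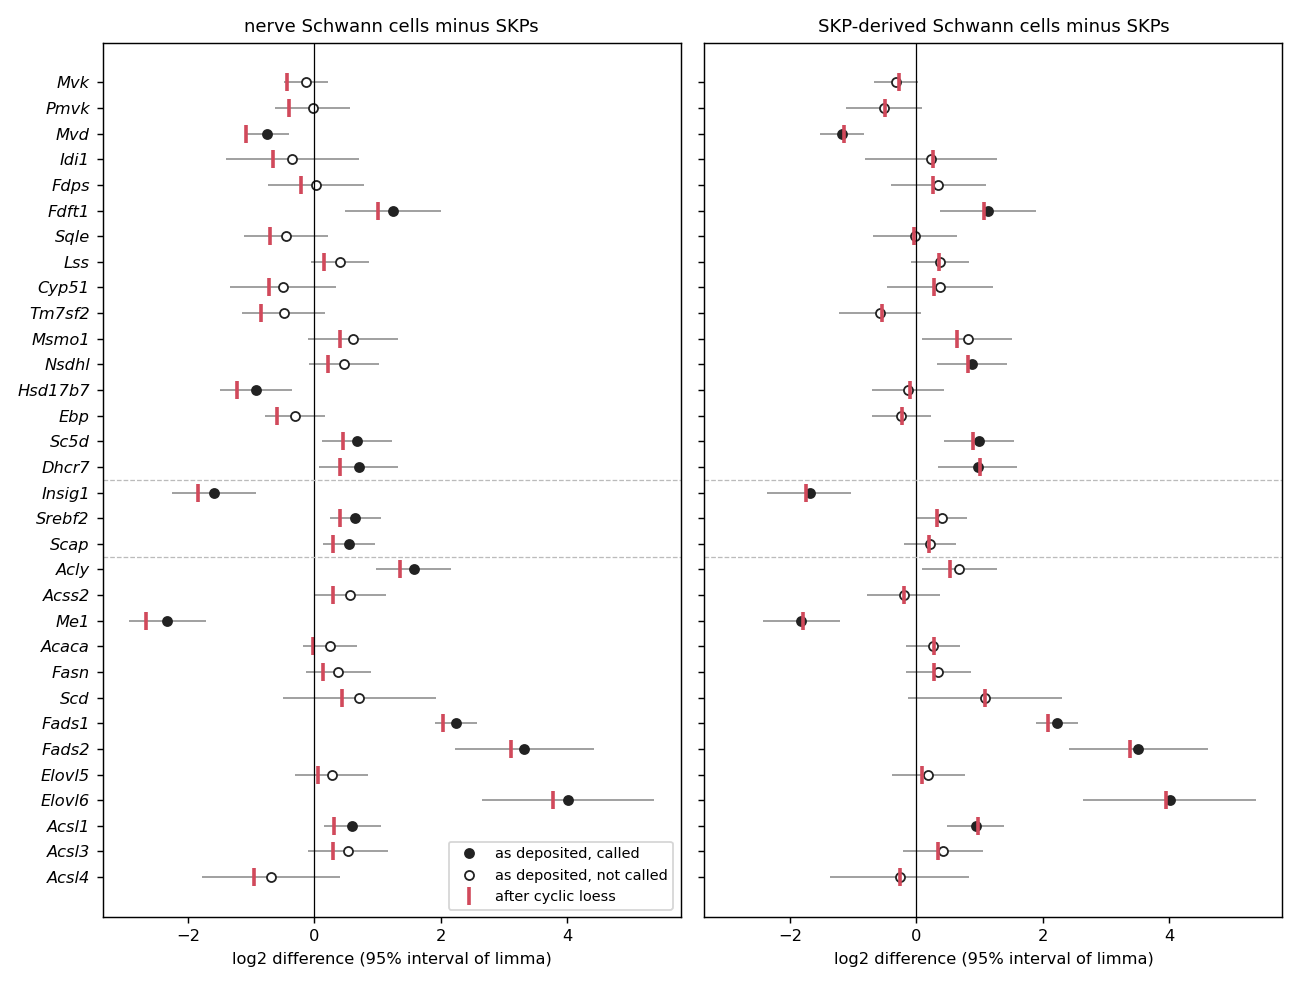
Log2 difference of each of the 32 measured members from SKPs, for nerve Schwann cells on the left and SKP-derived Schwann cells on the right, with the 95% interval of limma; filled circles are called as deposited, open circles are not, and red bars give the difference after cyclic loess. Fads1, Fads2 and Elovl6 lie farthest to the right in both panels and Me1 farthest to the left, while most sterol enzymes lie within 1 of zero.

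The promoters of 5 called genes are shown first: some of the called sterol enzymes, a regulator and the desaturase pair. Each is the 250 bases before the RefSeq start on the rat GRCr8 assembly, read 5′ to 3′ on the gene's own strand. Capitals mark each CCAAT box or its reverse complement ATTGG, the letters recognised by NF-Y, a factor known to act beside SREBPs at sterol genes.
Nsdhl promoter, chrX:155817110-155817359, plus strand: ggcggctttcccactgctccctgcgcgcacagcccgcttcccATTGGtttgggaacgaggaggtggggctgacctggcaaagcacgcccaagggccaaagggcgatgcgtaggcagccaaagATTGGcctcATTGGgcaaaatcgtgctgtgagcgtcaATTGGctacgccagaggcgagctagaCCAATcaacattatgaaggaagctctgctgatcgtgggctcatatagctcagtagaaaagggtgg
Hsd17b7 promoter, chr13:84722755-84723004, minus strand: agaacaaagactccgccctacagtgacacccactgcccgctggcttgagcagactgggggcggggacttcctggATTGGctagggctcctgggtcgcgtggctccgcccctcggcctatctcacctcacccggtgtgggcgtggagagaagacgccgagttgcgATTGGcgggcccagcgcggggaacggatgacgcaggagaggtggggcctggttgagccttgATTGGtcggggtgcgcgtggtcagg
Insig1 promoter, chr4:8057770-8058019, minus strand: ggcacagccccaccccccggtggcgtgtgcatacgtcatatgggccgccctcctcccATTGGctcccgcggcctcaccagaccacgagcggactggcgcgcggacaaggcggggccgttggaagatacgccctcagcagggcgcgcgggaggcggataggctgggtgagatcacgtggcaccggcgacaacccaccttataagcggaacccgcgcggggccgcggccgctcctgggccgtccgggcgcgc
Fads1 promoter, chr1:216252442-216252691, plus strand: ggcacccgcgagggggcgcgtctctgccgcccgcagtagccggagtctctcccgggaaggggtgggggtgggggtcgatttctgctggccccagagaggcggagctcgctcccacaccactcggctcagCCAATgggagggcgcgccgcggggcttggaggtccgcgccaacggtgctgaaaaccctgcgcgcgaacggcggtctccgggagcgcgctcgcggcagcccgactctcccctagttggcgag
Fads2 promoter, chr1:216172034-216172283, minus strand: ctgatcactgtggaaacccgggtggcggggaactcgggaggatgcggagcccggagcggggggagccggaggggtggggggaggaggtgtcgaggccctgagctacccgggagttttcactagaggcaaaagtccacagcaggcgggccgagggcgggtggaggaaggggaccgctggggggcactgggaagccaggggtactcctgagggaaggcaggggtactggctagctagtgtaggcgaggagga

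The Nsdhl promoter holds 5 such boxes, the Hsd17b7 promoter 3, Insig1 and Fads1 1 each, and Fads2 none. Of the 32 measured members, 26 had a RefSeq promoter (300 bases, including 50 after the start); Pmvk, Fdft1, Sqle, Acaca, Fasn and Elovl6 did not. A CCAAT box on either strand lay in 11 of 13 sterol promoters, 2 of 3 regulator promoters and 6 of 10 fatty acid promoters, and in 37.7% of all 27457 promoters (38.4% of the 19005 of protein-coding genes). The GC box GGGCGG, searched on both strands, lay in 11 of 13, 3 of 3 and 7 of 10, and in 34.9% of all promoters (43.1% of the protein-coding). The E-box CACGTG lay in 1 of 13, 2 of 3 and 1 of 10, and in 6.65% of all. The sterol regulatory element core TCACNCCAC was in 0 of 26 member promoters and in 1.13% of all on either strand, which says only that these exact letters are not in those windows. Nsdhl and Hsd17b7, both with several CCAAT boxes, were not called in the same comparison with SKPs: Nsdhl rose in SKP-derived Schwann cells and Hsd17b7 fell in nerve Schwann cells. Among the protein-coding genes listed on chromosome 1, Fads1 and Fads2 are neighbours in gene order. Their starts lie 80659 bases apart on opposite strands.

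Fads1 and Fads2 are the desaturases that turn essential fatty acids into long polyunsaturated ones. Fads1 was 11.66, 11.71 and 11.52 in the nerve arrays, 11.73, 11.61 and 11.50 in the SKP-derived arrays and 9.54, 9.50 and 9.13 in the SKP arrays. Every Schwann cell array lay above every SKP array, and the 2 kinds of Schwann cell overlapped. Over all genes, every nerve array lay above every SKP array at 55.8% and below at 17.8%, and every SKP-derived array at 22.1% and 25.8%. Fads1 was 4.73 times as high in nerve Schwann cells as in SKPs (log2 difference 2.24, SE 0.15, adjusted p = 7.12e-06) and 4.67 times in SKP-derived Schwann cells (2.22, SE 0.15, adjusted p = 8.27e-06). Between the Schwann cells the interval of its difference was -0.35 to 0.32, narrower than that of Fads2 or Elovl6.

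Fads2 was 12.20, 12.10 and 11.71 in nerve arrays, 11.98, 12.39 and 12.20 in SKP-derived arrays, and 9.50, 9.26 and 7.27 in SKP arrays. The Schwann cell arrays again lay above all SKP arrays, with SKP array 3 well below the other SKP arrays. Its difference from SKPs was 3.32 (SE 0.49, adjusted p = 0.000376) in nerve and 3.51 (11.4-fold, SE 0.49, adjusted p = 0.000448) in SKP-derived Schwann cells. Without SKP array 3 these were 2.62 and 2.81, still called.

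Elovl6 lengthens the palmitate made by fatty acid synthase. It was 11.34, 11.17 and 10.37 in nerve arrays, 11.61, 10.02 and 11.22 in SKP-derived arrays, and 7.88, 7.43 and 5.52 in SKP arrays. No Schwann cell array came near the SKP range, and SKP array 3 was again lowest. The difference from SKPs was 4.01 (16.1-fold) in both kinds of Schwann cell, with SE 0.61 and adjusted p = 0.000432 in nerve and 0.000706 in SKP-derived cells. Without SKP array 3 it was 3.30 and 3.29. Between the 2 kinds of Schwann cell Elovl6 differed by -0.01, but with an interval of -1.37 to 1.36. Elovl5, which lengthens polyunsaturated fatty acids, was not called in any comparison, at 0.27 and 0.19 against SKPs. Elovl3, an elongase gene outside the members, was called higher in nerve Schwann cells than in SKPs as deposited (1.12, adjusted p = 0.00144). After cyclic loess it was not (0.39, adjusted p = 0.113).

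Scd, a desaturase that makes monounsaturated fatty acids, did not pass the test in any comparison. It was 8.86, 8.86 and 8.66 in nerve arrays, 7.63, 9.92 and 9.93 in SKP-derived arrays, and 8.55, 8.10 and 7.59 in SKP arrays. SKP-derived array 1 lay within the SKP range while the other SKP-derived arrays lay above every nerve and SKP array. The difference of SKP-derived Schwann cells from SKPs was 1.08 (adjusted p = 0.14), and without SKP-derived array 1 it was 1.84 (adjusted p = 0.000996). Scd2, another desaturase gene but outside the members, was called higher than in SKPs as deposited. It differed by 0.98 in nerve (adjusted p = 0.0103) and 0.95 in SKP-derived Schwann cells (adjusted p = 0.0193). It lost the call after median centring in nerve (adjusted p = 0.31) and after cyclic loess in SKP-derived cells (adjusted p = 0.0504). As deposited, 49.7% and 19.3% of all genes were called higher.

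The enzymes that supply acetyl-CoA and reducing power went different ways. Acly, which makes cytosolic acetyl-CoA from citrate, was 11.95, 11.79 and 11.89 in nerve arrays, 11.39, 10.38 and 11.19 in SKP-derived arrays, and 10.57, 10.42 and 9.92 in SKP arrays. The nerve arrays lay above all others, and SKP-derived array 2 lay within the SKP range. Acly rose 2.97-fold in nerve Schwann cells (1.57, SE 0.26, adjusted p = 0.000753); in SKP-derived Schwann cells it differed by 0.68 (adjusted p = 0.064), and by 0.99 without SKP-derived array 2 (adjusted p = 0.00502). Me1, the malic enzyme that makes NADPH, was 6.31, 7.22 and 6.67 in nerve arrays, 7.41, 7.56 and 6.77 in SKP-derived arrays, and 9.23, 9.16 and 8.80 in SKP arrays. All Schwann cell arrays lay below all SKP arrays. Me1 was 5.03 times higher in SKPs than in nerve Schwann cells (-2.33, SE 0.27, adjusted p = 0.000114) and 3.53 times higher than in SKP-derived ones (-1.82, SE 0.27, adjusted p = 0.000636).

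Both committed enzymes of chain synthesis were not called. Acaca, which makes malonyl-CoA, differed from SKPs by 0.25 and 0.26 (intervals -0.18 to 0.67 and -0.16 to 0.69). Fasn, the fatty acid synthase, differed by 0.38 and 0.35 (-0.14 to 0.89 and -0.16 to 0.87). Fasn was 10.05 to 10.17 in nerve arrays, 9.75 to 10.68 in SKP-derived arrays and 9.56 to 9.83 in SKP arrays. Of the acyl-CoA ligases, which activate fatty acids, Acsl1 rose in SKP-derived Schwann cells, from 7.91, 7.84 and 7.80 in SKP arrays to 9.16, 8.32 and 8.87 (0.94, SE 0.20, adjusted p = 0.00475), with no overlap. In nerve Schwann cells Acsl1 was 8.52, 8.52 and 8.29 (0.60 against SKPs, adjusted p = 0.0247 as deposited, 0.192 after cyclic loess). Acsl3 (0.53 and 0.42 against SKPs) and Acsl4 (-0.69 and -0.26) were not called in any comparison.

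**Figure D2:**
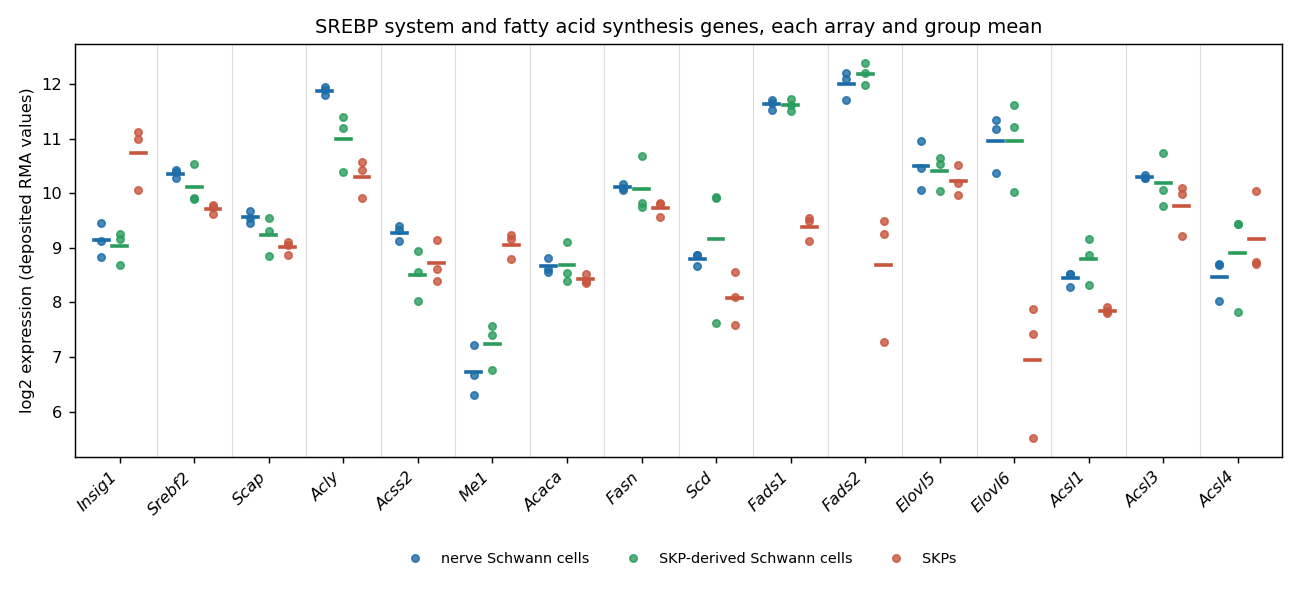
Log2 level of the 3 measured regulators and 13 fatty acid enzymes in each of the 9 arrays (points) with group means (bars), in nerve Schwann cells (blue), SKP-derived Schwann cells (green) and SKPs (red). Schwann cell and SKP points are fully apart for Insig1, Srebf2, Me1, Fads1, Fads2, Elovl6 and Acsl1, and the SKP points of Fads2 and Elovl6 spread over more than 2 units; over all genes, nerve points lay fully above SKP points at 55.8% and fully below at 17.8%, and SKP-derived points at 22.1% and 25.8%.

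Counted over the 13 fatty acid enzymes, the comparison of nerve Schwann cells with SKPs called 5 higher and 1 lower as deposited, against 49.7% of all genes called higher and 14.9% lower. Under all 4 scalings 4 were higher (Acly, Fads1, Fads2 and Elovl6) and 1 lower (Me1), against 15.3% and 14.9% of all genes. In SKP-derived Schwann cells 4 were higher (Fads1, Fads2, Elovl6 and Acsl1) and 1 lower (Me1), both as deposited and under all 4 scalings, against 19.3% and 22.3% of all genes as deposited and 14.3% and 21.4% under all 4. The median difference of the 13 was 0.56 in nerve (0.30 after loess) and 0.42 in SKP-derived Schwann cells (0.34 after loess), beside 0.46 and -0.01 for all genes.

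In the mevalonate steps, Mvd, which makes isopentenyl diphosphate, fell in both kinds of Schwann cell. It was 7.61, 7.83 and 7.54 in nerve arrays, 7.14, 7.27 and 7.29 in SKP-derived arrays, and 8.67, 8.27 and 8.29 in SKP arrays. The 3 groups did not overlap as deposited. Mvd was 1.68 times higher in SKPs than in nerve Schwann cells (-0.75, SE 0.15, adjusted p = 0.00212) and 2.26 times higher than in SKP-derived ones (-1.18, SE 0.15, adjusted p = 0.000293). Its neighbours Mvk, Pmvk, Idi1 and Fdps were not called as deposited in any comparison. Mvk, the mevalonate kinase, differed from SKPs by -0.14 in nerve Schwann cells and by -0.44 after cyclic loess (adjusted p = 0.0261). Idi1, the isomerase that follows Mvd, ranged from 7.05 to 9.10 over the SKP arrays alone, wider than any difference between group means.

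At the branch to sterols, Fdft1, the squalene synthase, was 10.73, 10.43 and 9.91 in nerve arrays, 9.75, 10.27 and 10.71 in SKP-derived arrays, and 9.64, 9.17 and 8.51 in SKP arrays. Each Schwann cell array lay above each SKP array, although 9.75 and 9.64 were close. Fdft1 rose 2.20-fold in SKP-derived Schwann cells (1.14, SE 0.34, adjusted p = 0.0237), and lost the call when SKP-derived array 2 (adjusted p = 0.0554), SKP-derived array 3 (0.0807), SKP array 2 (0.0529) or SKP array 3 (0.0651) was omitted. In nerve Schwann cells it was called as deposited (1.25, adjusted p = 0.00961) but not after median centring (adjusted p = 0.136). Sqle, the squalene epoxidase, and Lss, which closes the ring to lanosterol, were not called.

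From lanosterol on, Nsdhl, a sterol dehydrogenase, was 9.76, 10.19 and 10.42 in SKP-derived arrays, 9.67, 9.24 and 8.83 in SKP arrays, and 9.85, 9.85 and 9.43 in nerve arrays. The SKP-derived arrays lay above the SKP arrays, while nerve array 3 lay within the SKP range. Nsdhl rose 1.84-fold in SKP-derived Schwann cells (0.88, SE 0.25, adjusted p = 0.0179), and without SKP-derived array 3 its adjusted p was 0.061. Sc5d, a sterol desaturase near the end of the pathway, was 10.33, 11.38 and 10.60 there against 9.85, 9.70 and 9.81 in SKPs. These arrays did not overlap, and Sc5d rose 1.98-fold (0.99, SE 0.25, adjusted p = 0.0104). Dhcr7, which takes the last step to cholesterol, was 8.22, 8.83 and 8.93 against 8.20, 7.73 and 7.14. The lowest SKP-derived and the highest SKP array nearly met, and Dhcr7 rose 1.96-fold (0.97, SE 0.28, adjusted p = 0.0195), with adjusted p of 0.0578 and 0.0655 without SKP-derived array 2 or 3. In nerve Schwann cells Sc5d (0.67, adjusted p = 0.0357) and Dhcr7 (0.70, adjusted p = 0.0499) were called as deposited but not after cyclic loess (adjusted p = 0.199 and 0.277).

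Hsd17b7, a ketoreductase of the same stretch, had its own pattern. It was 7.39, 7.59 and 7.45 in nerve arrays, 8.07, 8.33 and 8.42 in SKP-derived arrays, and 8.96, 8.44 and 7.81 in SKP arrays. The nerve arrays lay below all others, and the SKP-derived arrays lay within the SKP range. Hsd17b7 was 1.90 times higher in SKPs than in nerve Schwann cells (-0.92, SE 0.25, adjusted p = 0.0102), and in SKP-derived Schwann cells it differed from SKPs by -0.13 (interval -0.70 to 0.44). Cyp51, Tm7sf2, Msmo1 and Ebp, which handle the demethylation, reduction and isomerisation steps between, were not called as deposited; Tm7sf2 was -0.85 in nerve Schwann cells after cyclic loess (adjusted p = 0.0394), where SKP array 1 stood at 8.64 and the other SKP arrays at 7.51 and 7.44 as deposited. The 10 sterol enzymes called in no comparison as deposited ranged in their difference from SKPs from -0.50 (Cyp51) to 0.61 (Msmo1) in nerve and from -0.58 (Tm7sf2) to 0.81 (Msmo1) in SKP-derived Schwann cells.

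**Figure D3:**
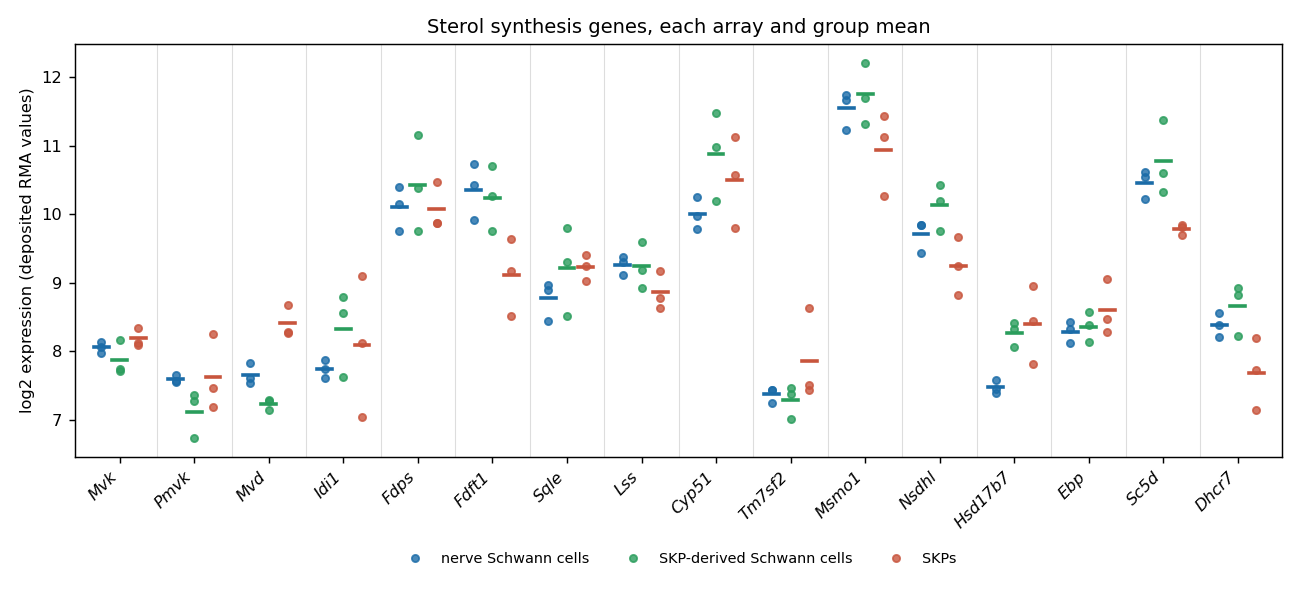
Log2 level of the 16 measured sterol synthesis enzymes, in pathway order, in each of the 9 arrays (points) with group means (bars), in nerve Schwann cells (blue), SKP-derived Schwann cells (green) and SKPs (red). Mvd is the only one whose Schwann cell points all lie below the SKP points by more than 0.4, those of Fdft1, Sc5d and Dhcr7 lie above them, and the highest SKP point of each gene is SKP array 1.

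Over the 16 sterol enzymes, the test on nerve Schwann cells against SKPs called 3 higher and 2 lower as deposited, where 49.7% of all genes were higher and 14.9% lower. After cyclic loess it called 1 higher and 4 lower, where 22.4% of all genes were higher and 25.6% lower. Under all 4 scalings limma called 0 higher and 2 lower (Mvd and Hsd17b7), where 15.3% of all genes were called higher and 14.9% lower. With an unadjusted p under 0.05 the limma counts under all 4 were also 0 and 2. At that threshold 2663 of all 14506 genes were higher and 2328 lower. In SKP-derived Schwann cells 4 were higher (Fdft1, Nsdhl, Sc5d and Dhcr7) and 1 lower (Mvd) under all 4 scalings, and the 4 became between 1 and 5 when arrays were left out in turn, with 1 without SKP-derived array 3 and 2 without SKP-derived array 2. In that comparison 14.3% of all genes were higher and 21.4% lower under all 4 scalings. The proliferation genes called higher in SKP-derived Schwann cells, given above, moved with these 4, and their part was not tested. The median difference of the 16 was -0.08 in nerve (-0.42 after loess) and 0.29 in SKP-derived Schwann cells (0.27 after loess). Over all 32 members, nerve Schwann cells had 10 higher and 4 lower as deposited, 5 and 6 with loess scaling, and 4 and 4 under all 4 scalings, beside the shares of all genes just given; 10 of 32 higher is a smaller share than the 49.7% of all genes. In SKP-derived Schwann cells 8 were higher and 3 lower both as deposited and under all 4 scalings.

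The sterol enzymes also varied together within a group. SKP array 1 was the highest of the 3 SKP arrays at 16 of 16 sterol enzymes, where it was highest at 33.8% of all genes (35.2% after loess). SKP-derived array 1 was the lowest of its group at 13 of 16 (14 after loess), against 27.9% and 29.8% of all genes. Nerve array 3 was the lowest of its group at 14 of 16 (15 after loess), against 31.6% and 37.3%. The median SD of the 16 was 0.17 in nerve, 0.36 in SKP-derived and 0.48 in SKP arrays, and that of all genes 0.11, 0.23 and 0.23. Genes of one pathway measured on one array are not independent, so these counts describe single arrays. The proliferation means given above took the same places: SKP array 1 had the highest of its group, and SKP-derived array 1 and nerve array 3 the lowest of theirs. In SKP-derived arrays 1, 2 and 3 they were 8.42, 8.47 and 9.25, beside sterol means of 8.75, 9.30 and 9.28. Arrays 1 and 2 of that group were thus close in proliferation mean but apart in sterol mean. SKP array 1 also had the highest macrophage and adipocyte marker means, and SKP-derived array 1 and nerve array 3 the lowest dermal mesenchyme means of their groups. The part of any of these in the sterol levels was not tested. Without SKP array 1, 5 sterol enzymes were called higher in nerve Schwann cells than in SKPs as deposited, instead of 3. The fatty acid enzymes shared part of this pattern. Among them SKP array 1 was the highest of its group at 10 of 13 (9 after loess). Nerve array 3 was the lowest of its group at 8 of 13 (10 after loess), and SKP-derived array 1 at 5 of 13. The fatty acid enzymes were lowest in SKP array 3 at 11 of 13, against 35.5% of all genes. That array also had the lowest proliferation mean, whose part was not tested.

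Of the regulators, Insig1, which holds SREBPs in the endoplasmic reticulum and is itself an SREBP target, was 9.13, 9.45 and 8.83 in nerve arrays, 8.68, 9.25 and 9.17 in SKP-derived arrays, and 10.99, 10.06 and 11.13 in SKP arrays. All Schwann cell arrays lay below all SKP arrays. Insig1 was 3.02 times higher in SKPs than in nerve Schwann cells (-1.59, SE 0.30, adjusted p = 0.00128) and 3.24 times higher than in SKP-derived ones (-1.69, SE 0.30, adjusted p = 0.00156). A second feature for Insig1 gave -1.31 and -1.16. Srebf2, the SREBP gene tied most to sterol synthesis, was 10.28 to 10.42 in nerve arrays, 9.89 to 10.53 in SKP-derived arrays and 9.62 to 9.79 in SKP arrays. Srebf2 was called higher in nerve Schwann cells as deposited (0.64, adjusted p = 0.0105) but not after cyclic loess (0.41, adjusted p = 0.0576). Scap was called there as deposited too (0.55, adjusted p = 0.0237), was 0.30 after cyclic loess (adjusted p = 0.134), and turned to -0.05 after median centring. Neither was called in SKP-derived Schwann cells.

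Between the 2 kinds of Schwann cell, 4 of 32 members were called as deposited, where 42.3% of all genes were lower and 1.33% higher in SKP-derived cells. Hsd17b7 was higher (0.79, adjusted p = 0.0316), and Mvd (-0.43, adjusted p = 0.0459), Acly (-0.89, adjusted p = 0.0241) and Acss2 (-0.76, adjusted p = 0.0369) were lower. Hsd17b7 was also called after median centring (1.26, adjusted p = 0.0294), and after cyclic loess its difference was 1.13 (interval 0.54 to 1.72). Acss2 makes cytosolic acetyl-CoA from acetate, and was 9.40, 9.12 and 9.32 in nerve arrays and 8.56, 8.03 and 8.95 in SKP-derived arrays. After cyclic loess none of the 4 was called, with adjusted p of 0.0694 for Hsd17b7, 0.845 for Mvd, 0.144 for Acly and 0.279 for Acss2, and each was also lost when any one nerve array was left out. Under all 4 scalings limma called 0 of 32 in either direction, where 0.476% of all genes were higher and 0.352% lower. With an unadjusted p under 0.05 in all 4, 2 were higher and 0 lower, where 332 of all 14506 genes were higher and 785 lower. The intervals left room for differences. For Scd it ran from -0.85 to 1.58, for Cyp51, the lanosterol demethylase, from 0.04 to 1.72, and for Idi1 from -0.47 to 1.63. The median difference of the sterol enzymes was 0.24 (0.41 after loess) and of the fatty acid enzymes -0.01 (0.19 after loess), beside -0.45 and -0.02 for all genes.

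**Figure D4:**
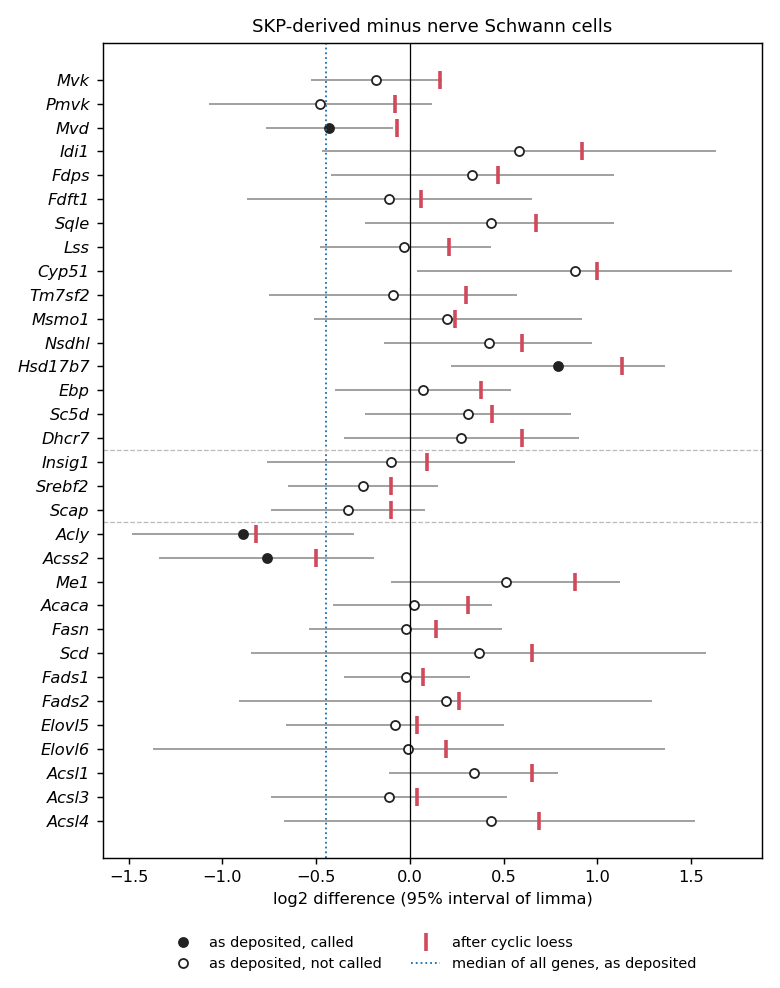
Log2 difference of each member between SKP-derived and nerve Schwann cells, with the 95% interval of limma; filled circles are called as deposited, open circles are not, red bars give the difference after cyclic loess, and the dotted line is the median of all genes as deposited (-0.45). Red bars lie to the right of the deposited points, and those of Acly and Acss2 stay farthest to the left.

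Genes next to these pathways were followed from lists of sterol handling, other fatty acid synthesis and fatty acid oxidation. Of 15 sterol export, oxysterol and esterification genes, all measured, nerve Schwann cells had 3 higher and 6 lower than SKPs under all 4 scalings, and SKP-derived ones 2 higher and 8 lower. For this and the next 3 lists, the share of all genes under all 4 scalings was 15.3% higher and 14.9% lower in nerve, and 14.3% higher and 21.4% lower in SKP-derived Schwann cells. Abca1, which loads cholesterol onto lipoprotein, was 12.91, 12.90 and 12.46 in nerve arrays, 12.45, 11.58 and 12.42 in SKP-derived arrays, and 9.84, 10.53 and 10.10 in SKP arrays. The Schwann cell arrays all lay above the SKP arrays, by 2.60 (SE 0.27, adjusted p = 6.3e-05) and 2.00 (SE 0.27, adjusted p = 0.000375) on average. Abcg1, another sterol exporter, went the other way: 6.64, 7.04 and 6.62 in nerve, 6.61, 7.33 and 6.48 in SKP-derived, and 9.60, 9.56 and 9.46 in SKP arrays. It fell by 2.77 in nerve (adjusted p = 1.85e-05) and fell by 2.73 in SKP-derived Schwann cells (adjusted p = 2.26e-05). Apoe, the apolipoprotein that carries sterols between cells, fell by 2.44 in nerve (adjusted p = 0.000153) and fell by 2.95 in SKP-derived Schwann cells (adjusted p = 7.58e-05). Nr1h3, which encodes an oxysterol receptor, fell by 0.79 in nerve (adjusted p = 0.00416) and fell by 1.57 in SKP-derived Schwann cells (adjusted p = 0.000165). Apoe and Abcg1 are also made by macrophages, whose marker mean was 7.63, 6.25 and 5.58 in SKP arrays 1, 2 and 3. In the same order Apoe was 11.51, 11.82 and 10.66 and Abcg1 9.60, 9.56 and 9.46; the part of macrophages was not tested.

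Apod, a lipocalin of peripheral nerve, was 12.12, 13.10 and 10.85 in nerve arrays, 7.30, 10.48 and 7.93 in SKP-derived arrays, and 9.74, 9.18 and 8.48 in SKP arrays. Nerve arrays were highest, and SKP-derived array 2 lay far above the other SKP-derived arrays. Apod was 2.89 higher in nerve Schwann cells than in SKPs (SE 0.81, adjusted p = 0.0109) and lower in SKP-derived than in nerve Schwann cells as deposited (-3.45, adjusted p = 0.00976), but the latter was not called after cyclic loess (adjusted p = 0.089). SKP-derived array 2 and nerve array 2, each with the highest Apod of its group, also had the highest dermal mesenchyme mean there. The part of dermal mesenchyme cells was not tested.

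Among 10 measured genes of 15 for other sterol synthesis and uptake steps, under all 4 scalings nerve Schwann cells had 0 higher and 3 lower, and 1 was higher and 3 lower in SKP-derived ones. Limma at an unadjusted p under 0.05 also gave 0 higher in nerve under all 4, and 4 as deposited. Over all 14506 genes these counts were 2663 and 7544. Lrp1, a lipoprotein receptor, fell by 2.06 in nerve (adjusted p = 3.54e-05) and fell by 2.26 in SKP-derived Schwann cells (adjusted p = 2.53e-05), and Npc2, which moves cholesterol out of lysosomes, fell by 1.65 (adjusted p = 0.000687) and fell by 1.47 (adjusted p = 0.00217). Insig2, the relative of Insig1, fell by 0.56 in nerve (adjusted p = 0.0165, and 0.0614 without nerve array 1) and fell by 0.78 in SKP-derived Schwann cells (adjusted p = 0.00527). Stard4, a sterol carrier, rose by 1.05 in SKP-derived Schwann cells (adjusted p = 0.00922).

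Among 19 measured genes of 27 for other fatty acid synthesis steps, 3 were higher and 3 lower in each kind of Schwann cell under all 4 scalings. Acsl5, another acyl-CoA ligase, was 7.19, 7.13 and 7.72 in nerve, 6.48, 8.07 and 7.27 in SKP-derived, and 10.69, 10.74 and 10.33 in SKP arrays. It fell by 3.24 in nerve (adjusted p = 8.02e-05) and fell by 3.31 in SKP-derived Schwann cells (adjusted p = 9.54e-05), whereas Acsl1 of the same family rose in SKP-derived Schwann cells. Idh1, which like Me1 makes cytosolic NADPH, fell by 1.57 in nerve (adjusted p = 7.51e-05) and fell by 1.81 in SKP-derived Schwann cells (adjusted p = 4.71e-05). Tecr, which takes the last step of each elongation cycle, rose by 1.09 (adjusted p = 0.00039) and 1.13 (adjusted p = 0.000526). Hsd17b12, which takes an earlier step of the same cycle, fell by 1.22 in nerve (adjusted p = 0.000605) and fell by 0.82 in SKP-derived Schwann cells (adjusted p = 0.00843). Hacd4, a dehydratase of the cycle, was the only gene of that list called between the 2 kinds of Schwann cell under all 4 scalings (1.08, adjusted p = 0.02). It was 6.94 in SKP-derived and 5.86 in nerve Schwann cells. Omission of nerve array 2 or 3 or of SKP-derived array 1 ended that call (adjusted p up to 0.0738).

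Fatty acid breakdown was followed beside synthesis. Of 19 measured oxidation genes of 20, nerve Schwann cells had 3 higher and 0 lower under all 4 scalings, and 4 were higher and 3 lower in SKP-derived ones. In nerve 1 was lower at an unadjusted p under 0.05 under all 4, as were 2328 of all 14506 genes. After cyclic loess limma called 4 lower in nerve, where 25.6% of all genes were lower. Cpt1a, which commits fatty acids to mitochondrial oxidation, was 11.34, 11.22 and 10.84 in nerve, 11.01, 10.11 and 10.87 in SKP-derived, and 8.67, 8.83 and 7.86 in SKP arrays. The groups of Schwann cells lay fully above SKPs, by 2.68 (SE 0.31, adjusted p = 0.000103) and 2.21 (SE 0.31, adjusted p = 0.000419). Cpt2, its partner inside the mitochondrion, rose by 1.01 (adjusted p = 0.000233) and 1.11 (adjusted p = 0.000212), and Acadl, a long-chain dehydrogenase, by 1.22 (adjusted p = 0.00059) and 0.93 (adjusted p = 0.00425). Cpt1a, like Fads1, Fads2 and Elovl6, was higher in each Schwann cell array than in each SKP array.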

How the data were processed

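RNA from 9 cultures, 3 per group, was measured on Affymetrix arrays. The authors deposited 1 table of log2 values, computed by RMA (Affymetrix Expression Console), as the submitters' processing notes state; the sources used here do not give versions, the genome build or whether all arrays were normalised together. Of its 29214 features, 15310 carried 1 gene symbol in the platform annotation, 323 several and 13581 none; only the first were named, and each of the 14506 genes was represented by its feature of highest mean. Groups were compared with limma 3.58.1 in R 4.3.3 (group means over 9 arrays, eBayes, Benjamini-Hochberg over all genes). Alternatives were 3 other scalings, omission of genes below the median gene, the mean of a gene's features, fits of 2 groups, the replicate number as a term, and omission of each array. The number of arrays limits precision. Genes outside the members were eligible to be named if among the 4 called with the largest differences of their list in a comparison. The script was tested on simulated data. Members and lists were chosen with earlier results of these data known.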

Additional observations from a re-analysis of the deposited data

How the results depend on the processing

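Sterol enzymes called higher in nerve Schwann cells than in SKPs were 3 as deposited, 0 after median centring, 1 after cyclic loess and 1 after quantile normalisation, 0 under all 4 scalings, and 1 to 5 with arrays left out in turn; those called lower were 2, then 7, 4 and 4 under the first 3 of these. In SKP-derived Schwann cells against SKPs, leaving out arrays gave 1 to 5 higher (4 as deposited) and 1 to 2 lower (1 as deposited). Between the Schwann cells, sterol enzymes higher were 1 as deposited, 0 after loess, quantile normalisation, all 4 scalings or omission of low genes, 2 in a fit of those 2 groups and 0 to 3 with arrays left out; those lower were 1, then 0 after median centring, loess, quantile normalisation, all 4 scalings, omission of low genes or with the replicate block, and 0 to 1 with arrays left out. Fatty acid enzymes higher in nerve Schwann cells were 5, and 8 in a fit of 2 groups; between the Schwann cells, 0 were higher and 0 to 1 with arrays left out, while 2 were lower, 0 after median centring, loess, quantile normalisation, all 4 scalings or omission of low genes, and 0 to 2 with arrays left out. Among called member differences, 3 changed sign: Mvd between the Schwann cells was 0.04 after median centring, Scap and Acsl1 in nerve against SKPs were -0.05 and -0.0037. Among neighbouring genes, Npc1l1, a sterol uptake transporter, between the Schwann cells was 0.09 after loess and 0.06 after quantile normalisation, and several genes not named in the results turned too, such as Cyp46a1 in nerve against SKPs (0.37 as deposited, -0.14 after loess). The cause was not tested. The labels number the samples in each group, but deviations of same-numbered samples correlated at -0.124 to 0.289, so the numbers were not taken as pairing; with the replicate block 94 member differences stayed on their side of the threshold, and Mvd between the Schwann cells (-0.43, limma adjusted p = 0.0694) and Dhcr7 in nerve against SKPs (0.70, limma adjusted p = 0.0719) lost it. With 3 arrays a group, differences whose interval includes 0 could not be told apart from no difference.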
